A study of Mus musculus with 12 samples.

Results

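Imprinted genes are transcribed mainly from the copy inherited from the mother or mainly from the copy inherited from the father. A set of 44 such genes was followed in mouse embryonic stem cells. They were taken as a list of gene symbols from the 52661 gene IDs with estimated read counts. The filter on low counts kept 42 of the 44 for testing; Magel2 and Rasgrf1 did not pass it. All 12 RNA-seq libraries came from CGR8, a mouse embryonic stem cell line, in serum/LIF medium, where the cytokine LIF helps to hold the cells in the pluripotent state. Every group, control included, was stably transfected with an expression vector that also carries puromycin selection. Cells of neo1 MUT and unc5B MUT carried the ppy-cagg-netrin-ires-puro vector with netrin-1, a secreted guidance protein, in the variants that the labels name for the receptor genes neo1 and unc5B. Cells of netrin-1 WT carried the same vector with the unmutated protein, and control cells carried ppy-cagg-ires-puro without a transgene. Each of the 4 groups had 3 libraries, numbered 1 to 3 in the titles. The mutated residues, and whether the transfected cells were clones or pools, are not given in the sources used here. Nor is it given whether libraries of 1 group came from separate cultures, so the spread behind each p-value may be technical.

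Imprints are DNA methylation marks set in the germ line and kept on 1 parental copy through the divisions of the embryo. Most imprinted genes lie in clusters, in which an imprinting control region sets which copy is read, often through a long noncoding RNA or through binding of the insulator protein CTCF. Paternally expressed genes of such clusters tend to promote fetal and placental growth and maternally expressed genes tend to restrain it. Cultured embryonic stem cells are known for losing or gaining imprints. Reads were not assigned to parental alleles here, so all values are totals over both copies. By textbook knowledge of the mouse, 26 of the 44 genes are assigned to the paternal copy and 18 to the maternal copy. Some, such as Ube3a, Trappc9 and Commd1, are imprinted only in part of the tissues.

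Sequences of 4 of the genes on which the results turn are shown first, taken from RefSeq tables of build GRCm38.p6. H19, a maternally expressed noncoding RNA on distal chromosome 7, is the precursor of the microRNA pair miR-675, which lies within the gene on the minus strand at chr7:142577078-142577099 (3p arm) and chr7:142577112-142577133 (5p arm). The seeds (bases 2 to 8 of the mature microRNA) are in capitals, and the arms do not share a seed.
miR-675-3p: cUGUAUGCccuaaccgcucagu
miR-675-5p: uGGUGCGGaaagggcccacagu
For Sfmbt2, Peg3 and Grb10, genes called in the comparisons of neo1 MUT below, the promoter window is shown 5′ to 3′ on the gene's own strand, from 250 bases before to 50 bases after a transcription start. Capitals mark each CG pair, the dinucleotide that carries DNA methylation. The Sfmbt2 window (chr2:10370201-10370500, plus strand) holds 9 CG pairs, the Peg3 window (chr7:6730370-6730669, minus strand) 13 and the Grb10 window (chr11:12037371-12037670, minus strand) 45.
Sfmbt2: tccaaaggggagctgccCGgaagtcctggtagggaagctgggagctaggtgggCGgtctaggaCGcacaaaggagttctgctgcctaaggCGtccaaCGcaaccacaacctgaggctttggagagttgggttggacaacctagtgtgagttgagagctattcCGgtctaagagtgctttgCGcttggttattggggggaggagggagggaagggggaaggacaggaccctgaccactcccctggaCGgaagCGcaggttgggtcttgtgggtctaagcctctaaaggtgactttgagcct
Peg3: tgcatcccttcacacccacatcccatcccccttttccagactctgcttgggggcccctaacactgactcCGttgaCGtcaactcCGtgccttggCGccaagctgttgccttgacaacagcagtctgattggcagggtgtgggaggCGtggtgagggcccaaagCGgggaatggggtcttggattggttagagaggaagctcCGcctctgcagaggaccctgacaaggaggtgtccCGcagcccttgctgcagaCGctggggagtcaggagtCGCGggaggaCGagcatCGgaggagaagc
Grb10: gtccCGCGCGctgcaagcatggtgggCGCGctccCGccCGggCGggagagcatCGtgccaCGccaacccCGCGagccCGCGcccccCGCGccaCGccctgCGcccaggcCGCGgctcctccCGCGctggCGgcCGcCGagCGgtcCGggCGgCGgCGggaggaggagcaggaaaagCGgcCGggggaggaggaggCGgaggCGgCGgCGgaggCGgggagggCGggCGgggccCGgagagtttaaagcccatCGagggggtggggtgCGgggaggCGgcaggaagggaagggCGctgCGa
A window was found for 36 of the 44 genes, with 53 windows in all, and the median number of CG pairs was 15 in these windows and 7 over all 32851 windows in the table. The letters TGCCGC, the core of the methylated motif that the zinc finger protein ZFP57 binds, were searched on both strands (GCGGCA on the printed strand is a match too). They occurred in 13 of the 53 windows of imprinted genes (24.5%), with 1 match in the Grb10 window, and in 3813 of all 32851 windows (11.6%). A match describes the letters only, and methylation was not measured. The motif itself holds a CG pair and some genes have more than 1 window. The part of CG pairs in these shares was not tested.

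Each pair of groups was compared with the edgeR quasi-likelihood test and called at an adjusted p under 0.05 (Benjamini-Hochberg, over 21053 genes). The fit with the group as its only term is given beside the fit that adds the replicate number as a block, since libraries with the same number deviated together. "Rose", "fell" and "called" refer to the fit with the block unless stated, and the log2 fold changes (± SE) are of that fit.

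Summed estimated counts ran from 22256195 to 59735737 a library, with 22256195 to 24736421 in the libraries numbered 3. The number 3 libraries of all groups stood apart from numbers 1 and 2. Deviations from the group means correlated at 0.58 to 0.88 between libraries of the same number. They correlated at 0.49 to 0.76 between numbers 1 and 2, and at -0.60 or below between number 3 and another number. The 3 deviations of a group sum to 0, so with number 3 apart these values are partly set by the centring. The 8 embryonic stem cell markers summed to 3381 to 4362 CPM (read counts scaled to library size) in neo1 MUT, 3905 to 4464 CPM in unc5B MUT, 4086 to 4438 CPM in netrin-1 WT and 3943 to 4499.8 CPM in control. Between groups Sox2 was the only one of the 8 called, higher in netrin-1 WT than in control, and without the block none was called. Of 12 primitive endoderm markers, 12 fell in neo1 MUT and 12 in netrin-1 WT against control, and 0 were called in unc5B MUT against control. Without the block 4 and 5 of them passed in neo1 MUT and netrin-1 WT against control, and none in the other 4 comparisons. Their summed levels were 430.4 to 792 CPM in neo1 MUT, 1065 to 2808 CPM in unc5B MUT, 438 to 1124 CPM in netrin-1 WT and 1569.5 to 3724 CPM in control, with none at 0 in every library of a group. Primitive endoderm is the extraembryonic lineage that appears in cultures of embryonic stem cells. In bulk RNA, fewer cells of a type and less RNA per cell cannot be told apart. Of 8 fibroblast markers tested, Fn1 rose in neo1 MUT against control, at 0.65 ± 0.16 (adjusted p = 0.0394). Thy1 fell, at -1.30 ± 0.28 (adjusted p = 0.0253), as did Vim, at -0.68 ± 0.15 (adjusted p = 0.0254), and the median was -0.39. The trophoblast markers Krt8 and Ascl2 fell and the neural marker Pax6 rose in that comparison, beside 5.26% of all genes called, and no mesoderm marker was called. In netrin-1 WT against control only Tfap2c of these lists was called, higher, and none was called in unc5B MUT against control or, without the block, in any of these 3 comparisons. The summed level of the 12 fibroblast markers was 1174 to 3323 CPM in neo1 MUT and 948 to 1888 CPM in control. Of the 12, 2 and 1 were at 0 in every library, and 8 and 7 averaged under 1 CPM. Most of each sum came from Fn1, so it does not describe the list as a whole. Fn1, which encodes fibronectin, averaged 1756 ± 1199 CPM in neo1 MUT and 1056 ± 517 CPM in control (SD, n = 3 each). The part of any of these lists in the results below was not tested.

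Levels of the imprinted genes spread widely in these cells. In control, 12 of the 44 averaged at least 100 CPM, 12 lay between 10 and 100 CPM, 14 between 1 and 10 CPM and 6 under 1 CPM. Per kilobase of exon, Slc38a4, an amino acid transporter gene, was highest in control at 76.5 CPM per kb, followed by Impact, a regulator of the translational response to amino acid shortage, at 47.6 CPM per kb and Snrpn, which encodes a spliceosomal protein, at 47.1 CPM per kb. Cd81 (42.3 CPM per kb), H19 (35.5 CPM per kb), Mest (32.4 CPM per kb) and Peg10 (32.1 CPM per kb) came next. At the lower end stood Airn at 0.140, Magel2 at 0.0183 and Rasgrf1 at 0.0131 CPM per kb.

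The 3 comparisons of neo1 MUT held 20 of the 23 calls among imprinted genes (87%), beside 68.8% of the 3710 calls among all genes. Against control, 5 fell and none rose: Sfmbt2, Peg13, H19, Dlk1 and Peg3. That was 11.9% of the 42 tested, beside 5.26% of all genes called and 3.3% called lower, and the median log2 fold change was -0.23 for the imprinted genes and 0.015 for all genes. Against netrin-1 WT, 6 fell (Peg13, Sfmbt2, Grb10, Ndn, Peg3 and Snrpn) and Peg10 rose, 16.7% beside 1.99% of all genes (1.6% lower and 0.394% higher), with medians of -0.21 and 0.014. Against unc5B MUT, 7 fell (Sfmbt2, Peg13, H19, Dlk1, Grb10, Peg3 and Snrpn) and Peg10 rose, 19% beside 4.87% of all genes (3.28% lower and 1.59% higher), with medians of -0.22 and -0.002. The fit without the block called Peg13 alone against control (2.38%, beside 0.128% of all genes called and 0.114% called lower) and against unc5B MUT (2.38%, beside 0.133% and 0.119%). It called none against netrin-1 WT (0.076% of all genes), where 8 members had an unadjusted p under 0.05 (4.82% of all genes had). There DESeq2 without the block called 3 (beside 1.07% of all genes) and limma-voom none. The 3 comparisons share the neo1 MUT libraries, so their calls are not independent. The members were chosen with earlier results of these data known, so the shares are no test of enrichment. With the block and numbers 1 and 2 alone, 17 of 43 members were called in netrin-1 WT against control, beside 16.3% of all genes. There 14 were called in unc5B MUT against netrin-1 WT (13.4% of all genes). In neo1 MUT 15 were called against control (10.5%), 15 against unc5B MUT (10%) and 6 against netrin-1 WT (2.95%). So the weight of calls in neo1 MUT depended on the setting.

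**Figure D1:**
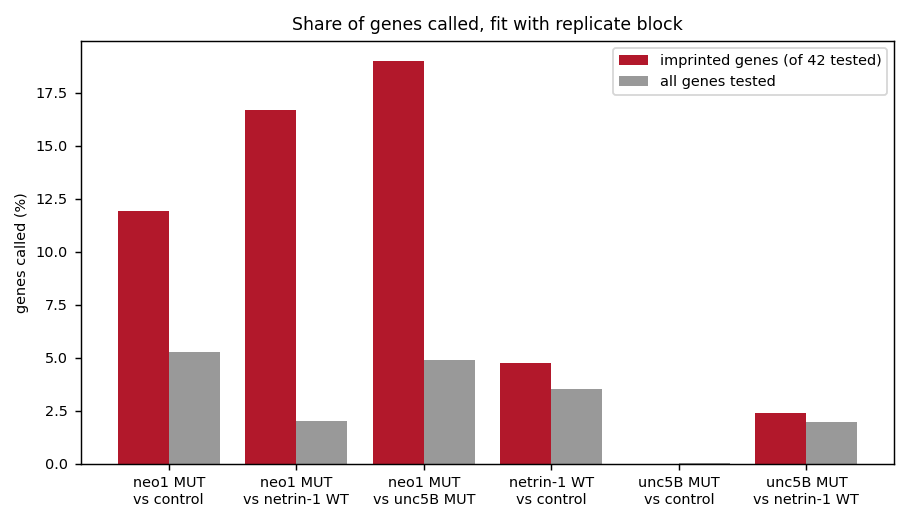
Share of genes called in each comparison by the edgeR fit with the replicate block: red bars for the 42 imprinted genes tested, grey bars for all 21053 genes, in percent. The red bar is 19% beside 4.87% for neo1 MUT against unc5B MUT, and there is no red bar for unc5B MUT against control. The imprinted genes come from a list chosen with earlier results of these data known.

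Peg13 is a paternally expressed noncoding RNA that lies in an intron of Trappc9 (chr15:72805600-72810324, minus strand, GRCm38), a gene of vesicle transport that is preferentially maternal in brain. Peg13 was at 1.41, 1.18 and 0.997 CPM in neo1 MUT and 11.9, 13.2 and 6.30 CPM in unc5B MUT. Peg13 was at 7.90, 7.37 and 6.10 CPM in netrin-1 WT and 11.7, 11.2 and 5.14 CPM in control. Values are in the order of libraries 1, 2 and 3 of a group, here and below. Every neo1 MUT library was below every library of the other groups, and the number 3 library was the lowest of each group. The log2 fold change of neo1 MUT was -2.93 ± 0.25 (adjusted p = 0.00024) against control, -2.60 ± 0.24 (adjusted p = 0.000683) against netrin-1 WT and -3.10 ± 0.25 (adjusted p = 0.000178) against unc5B MUT, or 7.60-fold, 6.08-fold and 8.59-fold lower. Without the block the values were -2.96 ± 0.40 (adjusted p = 0.025), -2.57 ± 0.39 (adjusted p = 0.0569) and -3.12 ± 0.40 (adjusted p = 0.0256). The call against control in that fit held only when control library 3 was left out (adjusted p = 0.0151, otherwise 0.0931 to 0.169), and the call against unc5B MUT only when unc5B MUT library 3 was left out (0.0113, otherwise 0.11 to 0.137). With numbers 1 and 2 alone they were -3.14 (adjusted p = 0.000191), -2.56 (adjusted p = 0.00115) and -3.27 (adjusted p = 0.000198), and with the block Peg13 was called whichever library was left out. Trappc9, whose exons share no base with Peg13, was at 26.5, 27.7 and 27.0 CPM in neo1 MUT and 27.2, 26.5 and 27.4 CPM in unc5B MUT. Trappc9 was at 21.9, 24.6 and 25.4 CPM in netrin-1 WT and 30.0, 32.5 and 21.0 CPM in control. Its log2 fold change was -0.04 ± 0.16 (adjusted p = 0.934) in neo1 MUT against control and 0.00 ± 0.16 (adjusted p = 0.998) against unc5B MUT, so the host gene was not called where the RNA within it fell. Chromosome 15 as a whole had lower values in some of these comparisons. Its 400 genes of at least 10 CPM had a median log2 fold change of -0.44 in neo1 MUT against control, -0.12 against netrin-1 WT and -0.49 against unc5B MUT. The median was -0.34 in netrin-1 WT against control. Neighbours, here and below, are tested genes within 1 Mb with at least 1 CPM that are outside the set of imprinted genes followed here. Members of the set, such as Trappc9, are not counted among them. The 9 neighbours of Peg13 ran from -0.72 to 0.48 in neo1 MUT against control, with a median of -0.34. The part of the chromosome-wide shift in the fall of Peg13 was not tested. Slc38a4, another imprinted gene of this chromosome, was at 260.4, 256 and 313 CPM in neo1 MUT and 273, 282 and 413 CPM in unc5B MUT. Slc38a4 was at 201, 238 and 407 CPM in netrin-1 WT and 279.6, 254 and 445 CPM in control. The log2 fold change of Slc38a4 against control was -0.19 ± 0.13 (adjusted p = 0.464) in neo1 MUT.

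Sfmbt2 is a paternally expressed Polycomb-group gene on proximal chromosome 2 (chr2:10370510-10595253, plus strand) that is needed for trophoblast. Its levels were 2.46, 1.94 and 0.892 CPM in neo1 MUT and 33.4, 22.2 and 5.54 CPM in unc5B MUT. Sfmbt2 was at 9.55, 8.78 and 6.25 CPM in netrin-1 WT and 35.8, 26.2 and 10.6 CPM in control. All neo1 MUT libraries were below all others, netrin-1 WT was below control without overlap, and unc5B MUT overlapped control. The log2 fold change of neo1 MUT was -3.75 ± 0.33 (adjusted p = 0.000318) against control, a 13.4-fold lower level, -2.35 ± 0.32 (adjusted p = 0.00483) against netrin-1 WT and -3.40 ± 0.33 (adjusted p = 0.000772) against unc5B MUT. These calls held with numbers 1 and 2 alone, at -3.82 (adjusted p = 6.13e-05), -2.08 (adjusted p = 0.00164) and -3.65 (adjusted p = 0.000107), and whichever library was left out. Without the block none passed, at adjusted p = 0.0796, 0.552 and 0.131. Sfmbt2 was among the members that fell in netrin-1 WT against control too, at -1.39 ± 0.29 (adjusted p = 0.0278), or -1.56 ± 0.64 (adjusted p = 0.757) without the block. That call was lost without netrin-1 WT library 1 (adjusted p = 0.134) or 2 (0.153) and without control library 1 (0.111) or 2 (0.113). With numbers 1 and 2 alone the change was -1.74 (adjusted p = 0.000801). Of 7 neighbours within 1 Mb, none was called in neo1 MUT against control (median -0.15), and Gata3, a transcription factor gene, fell against netrin-1 WT, at -1.63 ± 0.32 (adjusted p = 0.0278).

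H19 (chr7:142575529-142578143, minus strand), the host of the miR-675 arms shown above, had 8.67, 6.51 and 16.6 CPM in neo1 MUT and 27.6, 36.6 and 117 CPM in unc5B MUT. H19 was at 8.66, 15.4 and 43.7 CPM in netrin-1 WT and 30.4, 42.1 and 189.6 CPM in control. The number 3 library was the highest of each group, and the neo1 MUT values lay below all unc5B MUT and control values but overlapped netrin-1 WT. Against control, neo1 MUT differed by -2.63 ± 0.28 (adjusted p = 0.000846), and against unc5B MUT by -2.26 ± 0.27 (adjusted p = 0.00223). Both calls held with numbers 1 and 2 alone, at -2.21 (adjusted p = 0.00268) and -2.03 (adjusted p = 0.00387), and without any 1 library. Against netrin-1 WT the difference was -0.83 ± 0.27 (adjusted p = 0.174) and did not pass. In netrin-1 WT, H19 fell against control, at -1.80 ± 0.27 (adjusted p = 0.00541), or 3.49-fold lower. That call held without any 1 library. In unc5B MUT it was 2.69-fold higher than in netrin-1 WT, at 1.43 ± 0.26 (adjusted p = 0.0265). That call held only when netrin-1 WT library 3 was left out (adjusted p = 0.0276) and was lost without each of the other 5 libraries (adjusted p = 0.0949 to 0.147). Without the block none of these passed, at adjusted p = 0.337, 0.519, 0.842 and 1. The 11 neighbours of H19 within 1 Mb with at least 1 CPM had no call in any of the 6 comparisons; Ascl2, a gene of lower level that is described below, fell in neo1 MUT against control. The primitive endoderm markers moved in the comparisons in which H19 was called. Their median log2 fold change was -2.59 in neo1 MUT against control, with 12 lower, and -1.81 against unc5B MUT, with 12 lower. It was -2.75 in netrin-1 WT against control and 2.03 in unc5B MUT against netrin-1 WT, where 11 of 12 rose. Without the block none of the 12 was called in neo1 MUT against unc5B MUT or in unc5B MUT against netrin-1 WT. Their part in the values of H19 and Sfmbt2 was not tested. In neo1 MUT against netrin-1 WT the median of these markers was 0.22, with Amn alone called and higher, and Sfmbt2 and Peg13 fell in that comparison.

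**Figure D2:**
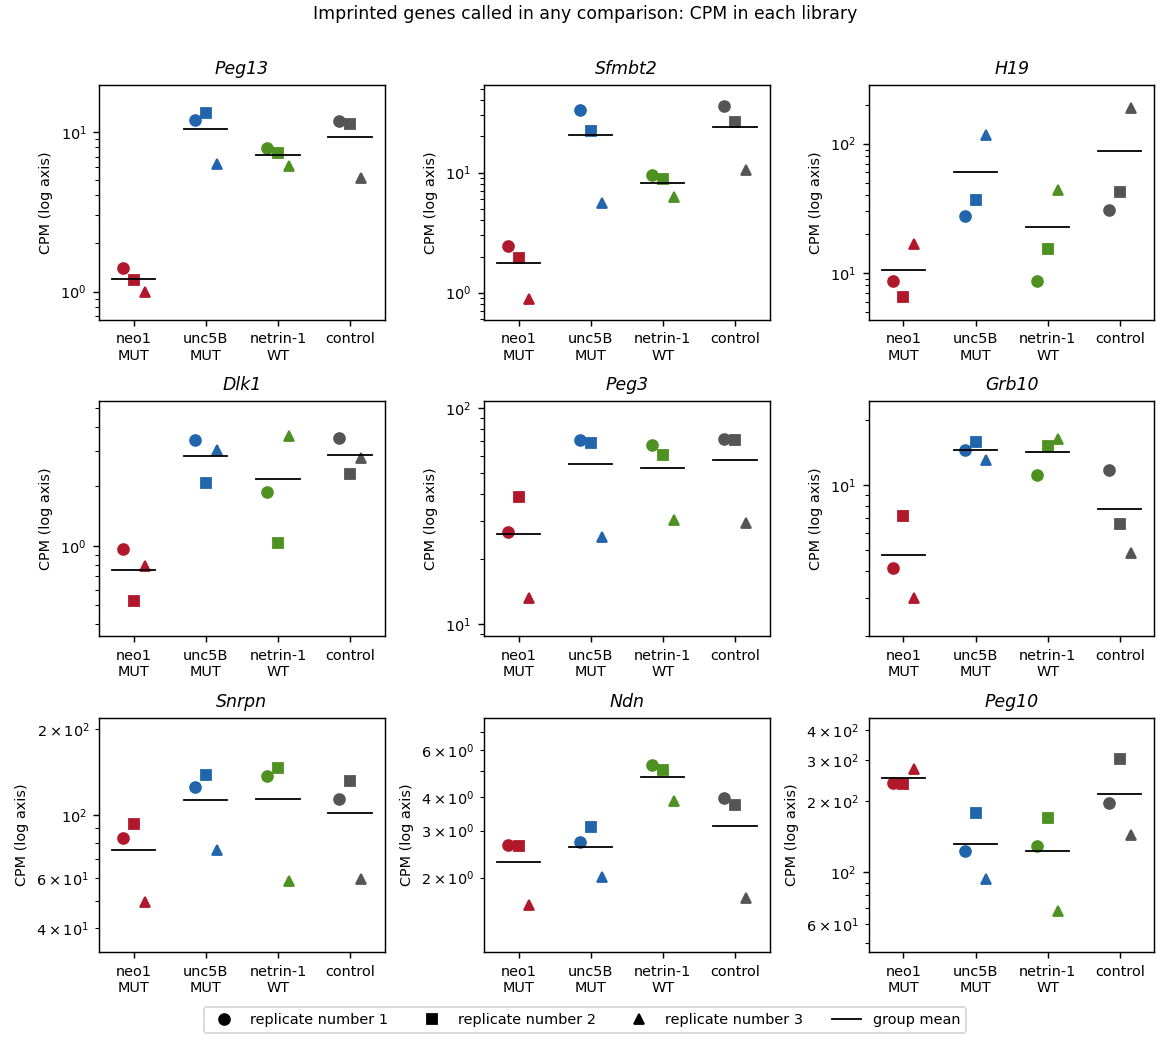
Levels of the 9 imprinted genes called in any comparison, in CPM on a log axis, in neo1 MUT, unc5B MUT, netrin-1 WT and control; symbols mark the replicate number and lines the group means. For Peg13 and Sfmbt2 the 3 neo1 MUT libraries lie below all others, and for H19 the number 3 library is the highest of each group.

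Dlk1, a paternally expressed membrane protein of the Notch ligand family on distal chromosome 12 (chr12:109452823-109463336, plus strand), was low, at 0.962, 0.523 and 0.787 CPM in neo1 MUT and 3.41, 2.07 and 3.04 CPM in unc5B MUT. Dlk1 was at 1.87, 1.03 and 3.59 CPM in netrin-1 WT and 3.50, 2.30 and 2.79 CPM in control. The neo1 MUT libraries were all under 1 CPM and below all libraries of the other groups. It fell in neo1 MUT, at -1.94 ± 0.33 (adjusted p = 0.0106) against control and at -1.90 ± 0.33 (adjusted p = 0.013) against unc5B MUT, and the difference from netrin-1 WT was -1.41 ± 0.34 (adjusted p = 0.064). Without the block the adjusted p was 0.211 against control and 0.264 against unc5B MUT. The call against control was lost without control library 1 (adjusted p = 0.0581) or 2 (0.0519). The call against unc5B MUT was lost without neo1 MUT library 2 (adjusted p = 0.0547) or 3 (0.0504) and without unc5B MUT library 1 (0.0888) or 2 (0.078). With numbers 1 and 2 alone the values were -1.99 (adjusted p = 0.00501) and -1.89 (adjusted p = 0.00617). Its 10 neighbours within 1 Mb had a median of 0.19 against control and none was called. Of the members in its cluster, Meg3 was at -0.28, Rian at -0.19, Mirg at -0.54 and Rtl1 at -0.65 in that comparison, none called.

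Peg3, a paternally expressed zinc finger gene of proximal chromosome 7 (chr7:6703892-6730431, minus strand), had 26.6, 38.6 and 13.2 CPM in neo1 MUT and 71.0, 68.7 and 25.2 CPM in unc5B MUT. Peg3 was at 67.1, 60.7 and 30.4 CPM in netrin-1 WT and 71.7, 71.2 and 29.2 CPM in control. Number 3 was the lowest library of each group and the groups overlapped as wholes, while within each number the neo1 MUT library was the lowest of the 4. The within-number differences of neo1 MUT were -1.43, -0.88 and -1.15 against control in numbers 1, 2 and 3. Peg3 fell in neo1 MUT, at -1.14 ± 0.15 (adjusted p = 0.00268) against control, -1.06 ± 0.15 (adjusted p = 0.00519) against netrin-1 WT and -1.06 ± 0.15 (adjusted p = 0.00464) against unc5B MUT. These 3 calls held whichever library was left out, and with numbers 1 and 2 alone the values were -1.14 (adjusted p = 0.00571), -0.98 (adjusted p = 0.0204) and -1.11 (adjusted p = 0.00653). Without the block the adjusted p was 0.741 against control, 1 against netrin-1 WT and 0.808 against unc5B MUT. Of its 20 neighbours within 1 Mb, Nlrp4c and Zscan5b also fell in neo1 MUT against unc5B MUT, at -2.50 ± 0.52 (adjusted p = 0.0245) and -1.53 ± 0.33 (adjusted p = 0.0284), and the median was 0.16.

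**Figure D3:**
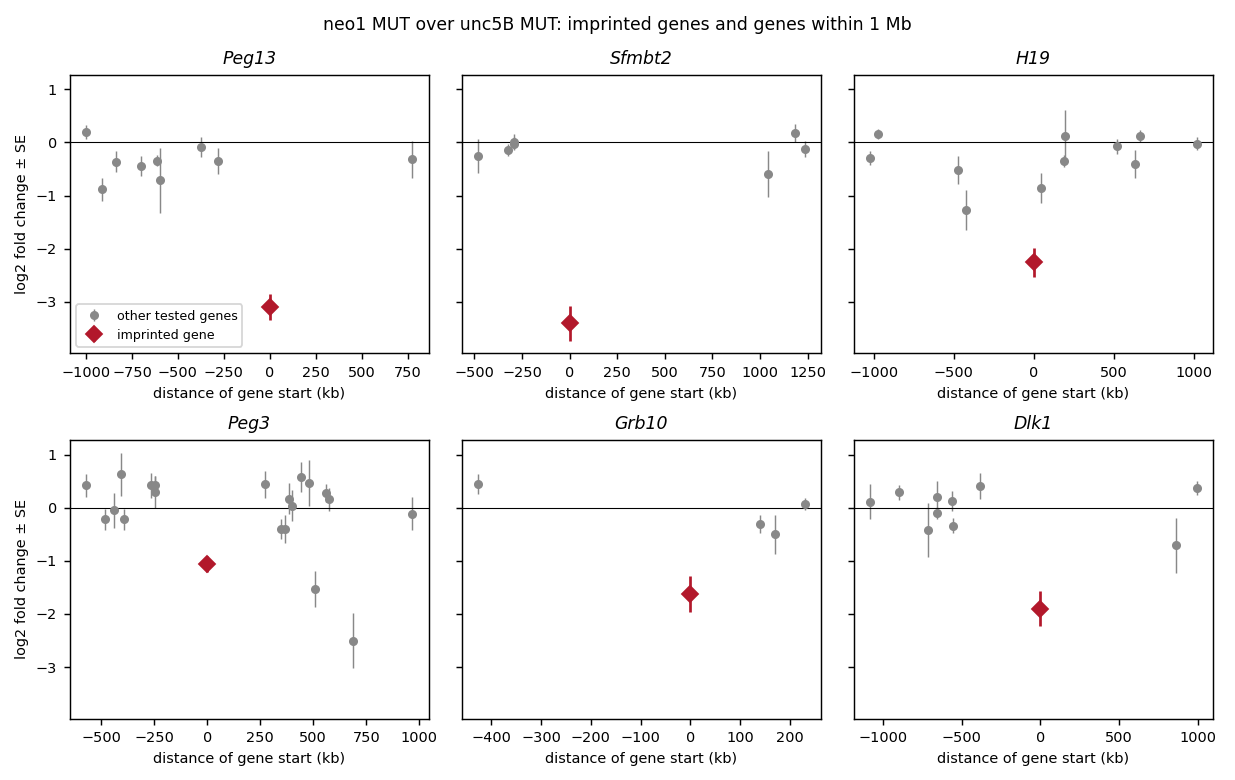
Log2 fold change ± SE of neo1 MUT over unc5B MUT for 6 imprinted genes (red diamonds) and their neighbours (grey). Values are from the fit with the replicate block and are drawn against the distance between gene starts in kb. Neighbours are tested genes within 1 Mb with at least 1 CPM that are outside the set of imprinted genes followed here. Peg13, Sfmbt2 and H19 lie below every neighbour drawn, and Peg3 has 2 neighbours below it.

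Grb10 encodes an adaptor that dampens insulin and growth factor signalling and is maternally expressed in most tissues (chr11:11930508-12038683, minus strand). It was at 4.12, 7.17 and 2.99 CPM in neo1 MUT and 14.6, 15.7 and 13.04 CPM in unc5B MUT. Grb10 was at 11.1, 15.1 and 16.3 CPM in netrin-1 WT and 11.7, 6.58 and 4.86 CPM in control. The neo1 MUT libraries were below all unc5B MUT and netrin-1 WT libraries and overlapped control, and unc5B MUT was above control without overlap. It fell in neo1 MUT, at -1.63 ± 0.34 (adjusted p = 0.0387) against netrin-1 WT and at -1.63 ± 0.34 (adjusted p = 0.0245) against unc5B MUT, while against control the difference was -0.71 ± 0.34 (adjusted p = 0.272). In unc5B MUT against control it was 0.92 ± 0.33 (adjusted p = 0.974) and in netrin-1 WT against control 0.91 ± 0.34 (adjusted p = 0.177), neither past the threshold. The call against netrin-1 WT was lost when neo1 MUT library 1 (adjusted p = 0.171) or 3 (0.163), or netrin-1 WT library 2 (0.117) or 3 (0.088), was left out. Numbers 1 and 2 alone gave -1.23 (adjusted p = 0.104). The call against unc5B MUT held only without neo1 MUT library 2 (adjusted p = 0.0322) and was lost without each of the other 5 libraries (0.073 to 0.113). The value was -1.44 (adjusted p = 0.0351) with numbers 1 and 2 alone. Without the block the adjusted p was 0.343 and 0.255.

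Snrpn and Ndn are paternally expressed genes of central chromosome 7, the mouse counterpart of the Prader-Willi region. Snrpn (chr7:59982495-60140219, minus strand) had 83.1, 92.6 and 49.3 CPM in neo1 MUT and 125, 138 and 75.5 CPM in unc5B MUT. Snrpn was at 136, 146 and 58.6 CPM in netrin-1 WT and 114, 131 and 59.7 CPM in control. Its groups overlapped and number 3 was the lowest library of each, while within every number neo1 MUT was below the other groups. It fell in neo1 MUT, at -0.55 ± 0.12 (adjusted p = 0.0387) against netrin-1 WT and -0.59 ± 0.12 (adjusted p = 0.0192) against unc5B MUT, and the difference from control was -0.41 ± 0.12 (adjusted p = 0.0681). Against netrin-1 WT the call held only without netrin-1 WT library 3 (adjusted p = 0.012) and was otherwise lost (0.074 to 0.177). Against unc5B MUT it held only without neo1 MUT library 3 (0.0408) and was otherwise lost (0.08 to 0.0968). Numbers 1 and 2 alone gave -0.69 (adjusted p = 0.00694) and -0.58 (adjusted p = 0.00648). Snurf, which shares its transcript with Snrpn, differed by -0.81 ± 0.21 (adjusted p = 0.0501) against unc5B MUT. Gm38393, which shares exons with Snrpn, fell against netrin-1 WT, at -1.03 ± 0.18 (adjusted p = 0.0178), so reads of these genes may have been divided. Of 6 neighbours of Snrpn within 1 Mb, Gm38393 and Snhg14 rose in netrin-1 WT against control. Ndn, which encodes the growth-restraining protein necdin (chr7:62346569-62350262, plus strand), had 2.65, 2.62 and 1.57 CPM in neo1 MUT and 2.72, 3.09 and 2.01 CPM in unc5B MUT. Ndn was at 5.29, 5.07 and 3.88 CPM in netrin-1 WT and 3.96, 3.73 and 1.68 CPM in control. The neo1 MUT libraries were below all netrin-1 WT libraries and overlapped the other groups. It fell in neo1 MUT against netrin-1 WT, at -1.08 ± 0.23 (adjusted p = 0.0425), a call that was lost without any 1 of the 6 libraries (adjusted p = 0.0845 to 0.164) and, at -0.98 (adjusted p = 0.0543), with numbers 1 and 2 alone. Without the block the adjusted p was 1 and 1 for Snrpn and 0.786 for Ndn.

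Peg10, a paternally expressed gene derived from a retrotransposon and needed for the placenta (chr6:4747306-4760517, plus strand, chromosome 6), was the only imprinted gene called higher in neo1 MUT. It had 238, 237 and 274 CPM in neo1 MUT and 123, 178 and 92.8 CPM in unc5B MUT. Peg10 was at 129, 170.0 and 68.0 CPM in netrin-1 WT and 196, 302 and 144 CPM in control. The neo1 MUT libraries were above all unc5B MUT and netrin-1 WT libraries and lay within the range of control. Peg10 rose in neo1 MUT, at 1.15 ± 0.24 (adjusted p = 0.0339) against netrin-1 WT and at 1.03 ± 0.23 (adjusted p = 0.0336) against unc5B MUT, and differed from control by 0.33 ± 0.23 (adjusted p = 0.461). Against control it was -0.82 ± 0.23 (adjusted p = 0.0865) in netrin-1 WT and -0.69 ± 0.23 (adjusted p = 0.889) in unc5B MUT. The call against netrin-1 WT held only without neo1 MUT library 2 (adjusted p = 0.0134) and was otherwise lost (0.0644 to 0.107). The call against unc5B MUT also held only without neo1 MUT library 2 (0.0178, otherwise 0.0838 to 0.17). With numbers 1 and 2 alone the values were 0.69 (adjusted p = 0.0433) and 0.70 (adjusted p = 0.0207), and without the block 1.03 ± 0.38 (adjusted p = 0.831) and 0.93 ± 0.38 (adjusted p = 0.657). Sgce, which encodes a sarcoglycan and shares its control region with Peg10, was at 8.29, 15.1 and 16.4 CPM in neo1 MUT and 4.17, 7.82 and 8.37 CPM in unc5B MUT. Sgce was at 7.92, 14.5 and 6.20 CPM in netrin-1 WT and 4.87, 8.63 and 15.5 CPM in control. Its difference between neo1 MUT and unc5B MUT was 0.97 ± 0.33 (adjusted p = 0.121), and it was called in no comparison.

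**Figure D4:**
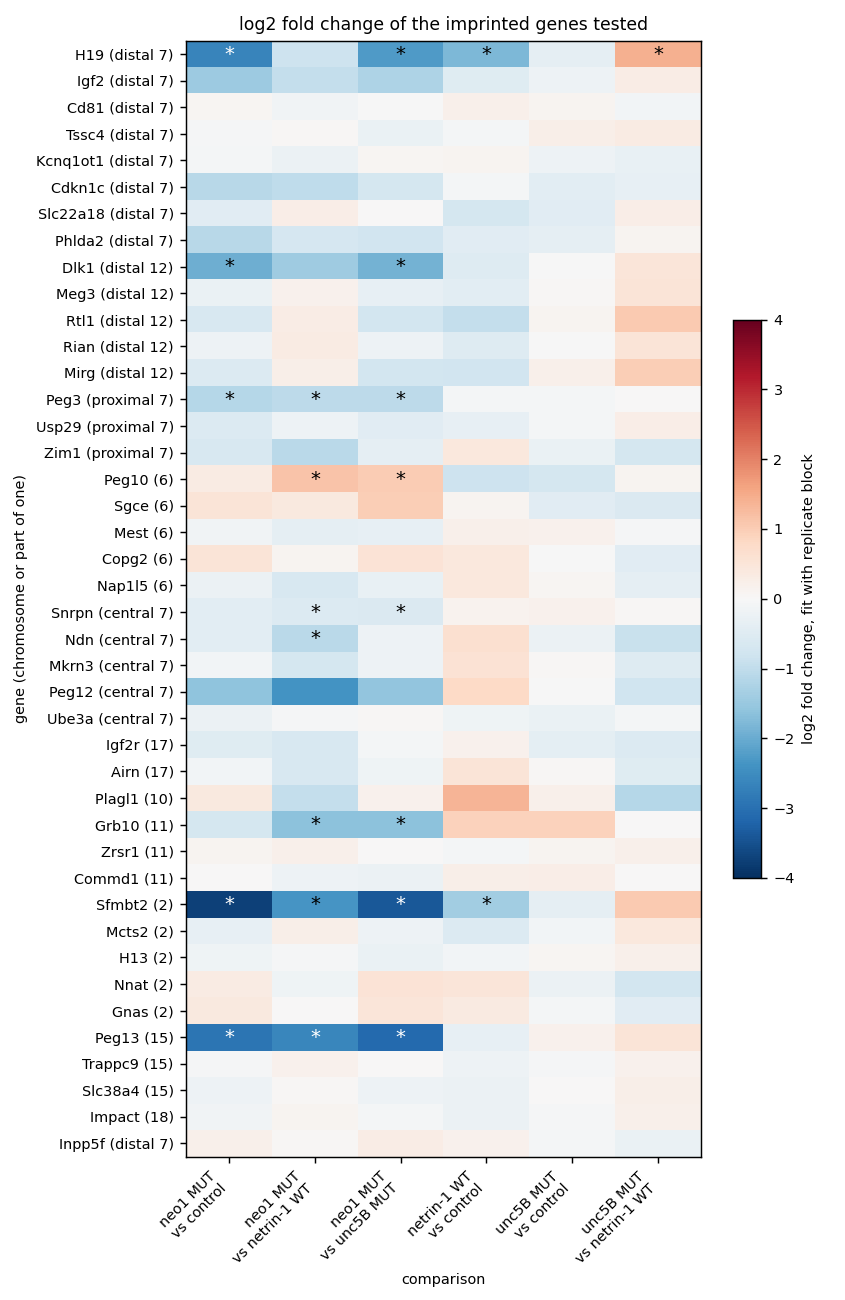
Log2 fold change (colour, fit with the replicate block) of the 42 imprinted genes tested in the 6 comparisons, ordered by chromosome part; stars mark the 23 values with an adjusted p under 0.05. The neo1 MUT columns hold 20 of the stars and the column of unc5B MUT against control holds none.

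The comparison of netrin-1 WT with control sets the unmutated protein against the empty vector and shares the control libraries with that of neo1 MUT. With the block, H19 and Sfmbt2 fell (values above) and no member rose, 4.76% of those tested beside 3.5% of all genes called and 1.76% called lower; medians were -0.08 for the imprinted genes and 0.007 for all genes. Without the block none was called (0.0997% of all genes), 5 had an unadjusted p under 0.05 (5.79% of all genes had), and DESeq2 and limma-voom without the block called none. Libraries of the groups did not overlap for 5 members, beside 9.23% of all genes: Plagl1 was higher, and Slc22a18, Mcts2, Sfmbt2 and Rtl1 were lower. Plagl1, a paternally expressed zinc finger gene that restrains growth, had 13.2, 7.35 and 8.48 CPM in netrin-1 WT and 5.40, 5.19 and 1.90 CPM in control, with 7.35, 7.38 and 2.05 CPM in neo1 MUT and 5.08, 6.25 and 2.72 CPM in unc5B MUT. Its log2 fold change was 1.35 ± 0.33 (adjusted p = 0.0534). Mcts2, a retrogene in an intron of H13, had 17.3, 15.9 and 15.6 CPM in netrin-1 WT and 27.5, 25.4 and 18.8 CPM in control, with 21.4, 19.9 and 15.9 CPM in neo1 MUT and 25.5, 22.1 and 18.04 CPM in unc5B MUT, a difference of -0.54 ± 0.13 (adjusted p = 0.056) between netrin-1 WT and control. Mcts2 is a copy of the gene Mcts1, so its reads are uncertain.

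Between unc5B MUT and control no imprinted gene was called by edgeR with or without the block, beside 0.0285% of all genes with the block and 0 of all genes without it. An unadjusted p under 0.05 was found for 2 members with the block and 1 without it (4.7% and 1.13% of all genes), and DESeq2 and limma-voom without the block, and DESeq2 with it, called none. The median log2 fold change was -0.04 for the imprinted genes and 0.016 for all genes. Libraries did not overlap for Grb10 and Commd1, both higher in unc5B MUT (4.76% of members, beside 4.38% of all genes in either direction and 2.33% higher). Commd1, a regulator of copper handling that is maternal in part of the tissues, had 49.1, 46.8 and 46.2 CPM in unc5B MUT and 34.3, 38.4 and 45.4 CPM in control, with 48.7, 32.1 and 40.8 CPM in neo1 MUT and 50.9, 48.6 and 40.0 CPM in netrin-1 WT. Against netrin-1 WT, unc5B MUT was higher for H19 alone (2.38% of members, beside 1.97% of all genes called and 1% called higher), and 13 members had an unadjusted p under 0.05 (17.6% of all genes had). Without the block the count was 0 with edgeR (2 at an unadjusted p under 0.05, as had 5.03% of all genes), DESeq2 and limma-voom. The direct comparison of the mutants is that of neo1 MUT against unc5B MUT above, in which 8 members were called.

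The genes were also read by the assigned copy, which was not measured in these cells. The 5 that fell in neo1 MUT against control were 4 of 24 paternally expressed genes tested and 1 of 18 maternally expressed genes, H19. Of all genes, 3.3% were called lower there. Against netrin-1 WT 5 of the 24 fell and 1 rose, and 1 of the 18 fell. All genes had 1.6% lower and 0.394% higher. Against unc5B MUT 5 of the 24 fell and 1 rose, and 2 of the 18 fell, beside 3.28% lower and 1.59% higher. Calls of Grb10, Snrpn, Ndn and Peg10, and of Dlk1 against unc5B MUT, were lost in most fits that left out 1 library. The difference between the classes was not tested.

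The remaining members are given by chromosome cluster. On distal chromosome 7, Igf2 shares enhancers with H19 and encodes a fetal growth factor; it had 0.192, 0.183 and 1.47 CPM in neo1 MUT, 0.788, 0.653 and 2.34 CPM in unc5B MUT, 1.18, 0.690 and 0.388 CPM in netrin-1 WT, and 0.752, 1.46 and 1.45 CPM in control, under 3 CPM in every library. Its log2 fold change in neo1 MUT against control was -1.45 ± 0.71 (adjusted p = 0.285). Igf2 shares exons with Gm49394 on the same strand, so its reads may have been divided. Cdkn1c, a maternally expressed inhibitor of the cell cycle, had 1.45, 1.18 and 0.629 CPM in neo1 MUT and 2.88, 2.81 and 0.272 CPM in unc5B MUT. Cdkn1c was at 2.93, 2.07 and 1.36 CPM in netrin-1 WT and 5.44, 2.42 and 0.503 CPM in control. The lowest library of each group was number 3, and neo1 MUT differed from control by -1.11 ± 0.49 (adjusted p = 0.235). Phlda2, a maternally expressed restrainer of placental growth, had 4.08, 1.65 and 2.62 CPM in neo1 MUT and 5.61, 3.94 and 4.45 CPM in unc5B MUT. Phlda2 was at 3.72, 4.27 and 4.84 CPM in netrin-1 WT and 4.78, 4.52 and 9.05 CPM in control. All neo1 MUT libraries were below all control libraries, and the difference was -1.12 ± 0.33 (adjusted p = 0.0768). Kcnq1ot1, the paternally expressed noncoding RNA that silences this cluster, had 21.9, 23.4 and 7.76 CPM in neo1 MUT, 20.4, 23.3 and 6.79 CPM in unc5B MUT, 27.3, 28.2 and 7.90 CPM in netrin-1 WT, and 21.0, 19.4 and 11.6 CPM in control, and its log2 fold changes lay between -0.31 and 0.12 in the 6 comparisons with none called. Of the same cluster, Cd81 ranged from 95.0 to 172 CPM, Tssc4 from 17.4 to 46.5 CPM and Slc22a18 from 0.292 to 0.726 CPM over the 12 libraries, and none was called. Inpp5f, farther along the chromosome, had 29.9, 33.2 and 42.8 CPM in neo1 MUT, 23.8, 29.5 and 32.8 CPM in unc5B MUT, 32.2, 34.6 and 35.0 CPM in netrin-1 WT, and 23.7, 30.5 and 38.5 CPM in control.

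On distal chromosome 12 the maternally expressed noncoding RNAs Meg3, Rian and Mirg are read from the copy on which Dlk1 and Rtl1 are silent. Meg3 had 90.2, 54.0 and 432 CPM in neo1 MUT, 145, 110.4 and 291 CPM in unc5B MUT, 84.0, 77.4 and 266 CPM in netrin-1 WT, and 126, 106 and 315 CPM in control. Rian, a host of small nucleolar RNAs, had 175, 134 and 398 CPM in neo1 MUT, 259, 196 and 279 CPM in unc5B MUT, 162, 136 and 233 CPM in netrin-1 WT, and 229, 193 and 334 CPM in control. Mirg, a host of microRNAs, had 10.5, 4.55 and 33.1 CPM in neo1 MUT, 21.4, 11.7 and 30.3 CPM in unc5B MUT, 7.50, 4.72 and 28.8 CPM in netrin-1 WT, and 15.9, 11.6 and 27.1 CPM in control. In each group the number 3 library was the highest for all 3 RNAs, and none was called between groups over the 12 libraries. The within-number differences of neo1 MUT from control were -0.48, -0.98 and 0.46 for Meg3, -0.39, -0.53 and 0.25 for Rian and -0.59, -1.34 and 0.29 for Mirg, so number 3 went the other way from numbers 1 and 2. With numbers 1 and 2 alone these 3 RNAs were called lower in neo1 MUT against control and against unc5B MUT, and lower in netrin-1 WT against control. That setting called 10.5%, 10% and 16.3% of all genes in these comparisons. Rtl1, a paternally expressed retrotransposon-derived gene of the placenta, had 1.24, 0.837 and 0.839 CPM in neo1 MUT and 2.46, 1.15 and 1.41 CPM in unc5B MUT. Rtl1 was at 0.763, 0.610 and 1.02 CPM in netrin-1 WT and 1.88, 1.27 and 1.45 CPM in control. Its libraries were lower in netrin-1 WT than in control without overlap, at -0.95 ± 0.31 (adjusted p = 0.123), and microRNAs lie on its opposite strand.

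On proximal chromosome 7, Usp29, a ubiquitin protease gene that starts next to Peg3, had 2.56, 2.69 and 3.51 CPM in neo1 MUT, 3.04, 5.03 and 4.24 CPM in unc5B MUT, 3.94, 4.56 and 1.84 CPM in netrin-1 WT, and 3.98, 5.69 and 3.46 CPM in control. Zim1, a maternally expressed zinc finger gene, had 2.65, 0.889 and 1.63 CPM in neo1 MUT, 2.56, 2.68 and 1.36 CPM in unc5B MUT, 5.95, 3.63 and 1.79 CPM in netrin-1 WT, and 3.85, 3.20 and 1.23 CPM in control. Neither was called, and where Peg3 fell in neo1 MUT against control the values were -0.55 ± 0.32 (adjusted p = 0.374) for Usp29 and -0.64 ± 0.39 (adjusted p = 0.397) for Zim1. Usp29 shares exonic bases with Zim3 on the opposite strand, so its reads are uncertain. On central chromosome 7, Peg12, a paternally expressed relative of Frat1, had 0.192, 0.131 and 0.105 CPM in neo1 MUT and 0.692, 0.392 and 0.217 CPM in unc5B MUT. Peg12 was at 1.08, 0.345 and 0.921 CPM in netrin-1 WT and 0.487, 0.550 and 0.223 CPM in control. Its neo1 MUT libraries were below those of every other group, at -1.60 ± 0.55 (adjusted p = 0.129) against control, -2.39 ± 0.54 (adjusted p = 0.0507) against netrin-1 WT and -1.58 ± 0.54 (adjusted p = 0.125) against unc5B MUT, none past the threshold. Ube3a, a ubiquitin ligase gene that is imprinted in neurons, had 151, 95.1 and 50.4 CPM in neo1 MUT, 113, 117 and 51.6 CPM in unc5B MUT, 105, 108 and 72.2 CPM in netrin-1 WT, and 133, 121 and 75.6 CPM in control, and no comparison called it. Mkrn3, a paternally expressed gene known for its part in the timing of puberty, ranged from 1.85 to 6.74 CPM and was not called.

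On chromosome 6, Mest, a paternally expressed hydrolase gene, had 128, 110.4 and 95.2 CPM in neo1 MUT, 187, 147 and 95.5 CPM in unc5B MUT, 155, 137 and 132 CPM in netrin-1 WT, and 163, 142 and 78.2 CPM in control. Copg2, a coat protein gene that overlaps its end, had 74.1, 98.3 and 259 CPM in neo1 MUT, 42.8, 56.5 and 249 CPM in unc5B MUT, 70.7, 102 and 202 CPM in netrin-1 WT, and 47.4, 54.1 and 249.6 CPM in control. They share 912 exonic bases on opposite strands and whether strand was used in counting is not given, so their reads may have been mixed. Neither was called between groups over the 12 libraries. With numbers 1 and 2 alone Copg2 was higher and Mest lower in neo1 MUT against control, where that setting called 10.5% of all genes. Nap1l5, a paternally expressed gene within an intron of another, had 0.812, 1.05 and 0.262 CPM in neo1 MUT, 1.05, 0.958 and 0.598 CPM in unc5B MUT, 1.01, 1.33 and 1.02 CPM in netrin-1 WT, and 0.797, 0.598 and 1.12 CPM in control, with no call. On chromosome 17, Igf2r, the maternally expressed receptor that clears Igf2, had 114, 102 and 81.9 CPM in neo1 MUT, 123, 124 and 70.4 CPM in unc5B MUT, 142, 153 and 172 CPM in netrin-1 WT, and 117, 113 and 183 CPM in control, and its silencing RNA Airn had 0.406, 0.811 and 0.210 CPM in neo1 MUT, 0.547, 0.828 and 0.217 CPM in unc5B MUT, 0.935, 0.663 and 0.484 CPM in netrin-1 WT, and 0.642, 0.646 and 0.223 CPM in control. Igf2r was lower in neo1 MUT than in netrin-1 WT without overlap, at -0.65 ± 0.25 (adjusted p = 0.251), and the values of Airn were -0.64 in that comparison and between -0.47 and 0.52 in the others, with no call.

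On chromosome 11, Zrsr1, a paternally expressed splicing factor retrogene within Commd1, had 37.8, 48.2 and 34.7 CPM in neo1 MUT, 40.0, 44.3 and 35.0 CPM in unc5B MUT, 36.1, 36.4 and 31.9 CPM in netrin-1 WT, and 38.5, 46.1 and 27.5 CPM in control; the genes share 412 exonic bases on opposite strands, and neither was called. On distal chromosome 2, Nnat, a paternally expressed gene of neural tissue, had 8.23, 12.2 and 7.76 CPM in neo1 MUT, 5.28, 9.06 and 5.11 CPM in unc5B MUT, 12.2, 13.1 and 6.59 CPM in netrin-1 WT, and 6.64, 8.61 and 7.04 CPM in control. Gnas, which encodes the stimulatory G protein subunit, had 162, 128 and 144 CPM in neo1 MUT, 92.6, 88.3 and 139 CPM in unc5B MUT, 133, 136 and 159.6 CPM in netrin-1 WT, and 97.9, 82.7 and 165 CPM in control. H13, a signal peptide peptidase gene, had 23.1, 36.0 and 27.3 CPM in neo1 MUT, 34.5, 30.8 and 37.5 CPM in unc5B MUT, 29.5, 30.2 and 29.1 CPM in netrin-1 WT, and 35.1, 31.5 and 29.7 CPM in control. None of these 3 was called, and the largest difference in size among them was that of Nnat in unc5B MUT against netrin-1 WT, at -0.73 ± 0.22 (adjusted p = 0.117). Of the 20 neighbours of Gnas within 1 Mb, only Nespas, which shares exonic bases with Gnas, was called in neo1 MUT against control, lower. On chromosome 18, Impact had 241, 277 and 101 CPM in neo1 MUT, 297, 269 and 98.8 CPM in unc5B MUT, 264, 245 and 82.2 CPM in netrin-1 WT, and 329.6, 321 and 82.7 CPM in control, with log2 fold changes from -0.25 to 0.19 and the lowest library of each group numbered 3.

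Among the 6 comparisons, libraries of the groups did not overlap for 7 members in neo1 MUT against control (all lower, 16.7% beside 11.4% of all genes in either direction and 5.96% lower), 10 in neo1 MUT against netrin-1 WT (23.8% beside 8.28%), 7 in neo1 MUT against unc5B MUT (16.7% beside 11.8%) and 7 in unc5B MUT against netrin-1 WT (16.7% beside 9.42%).

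The share of imprinted genes called between replicate numbers was near that of all genes. Between number 3 and numbers 1 and 2, in a fit with group and number, 28 of the 42 were called (10 higher and 18 lower in number 3), which is 66.7% beside 62.8% of all genes (31.8% higher and 31% lower). Copg2 (1.90 ± 0.15 on the log2 scale), H19 (1.85 ± 0.19), Meg3 (1.77 ± 0.18) and Mirg (1.65 ± 0.23) were higher in number 3. Cdkn1c (-1.85 ± 0.41), Impact (-1.61 ± 0.11), Kcnq1ot1 (-1.44 ± 0.17), Sfmbt2 (-1.40 ± 0.24) and Peg3 (-1.28 ± 0.12) were lower. In the same contrast 3 of the 8 embryonic stem cell markers (2 higher and 1 lower) and 5 of 8 fibroblast markers (4 higher and 1 lower, median 0.52) were called. Number 3 libraries had the lowest summed counts, and the meaning of the numbers is not given, so depth and number cannot be told apart.

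**Figure D5:**
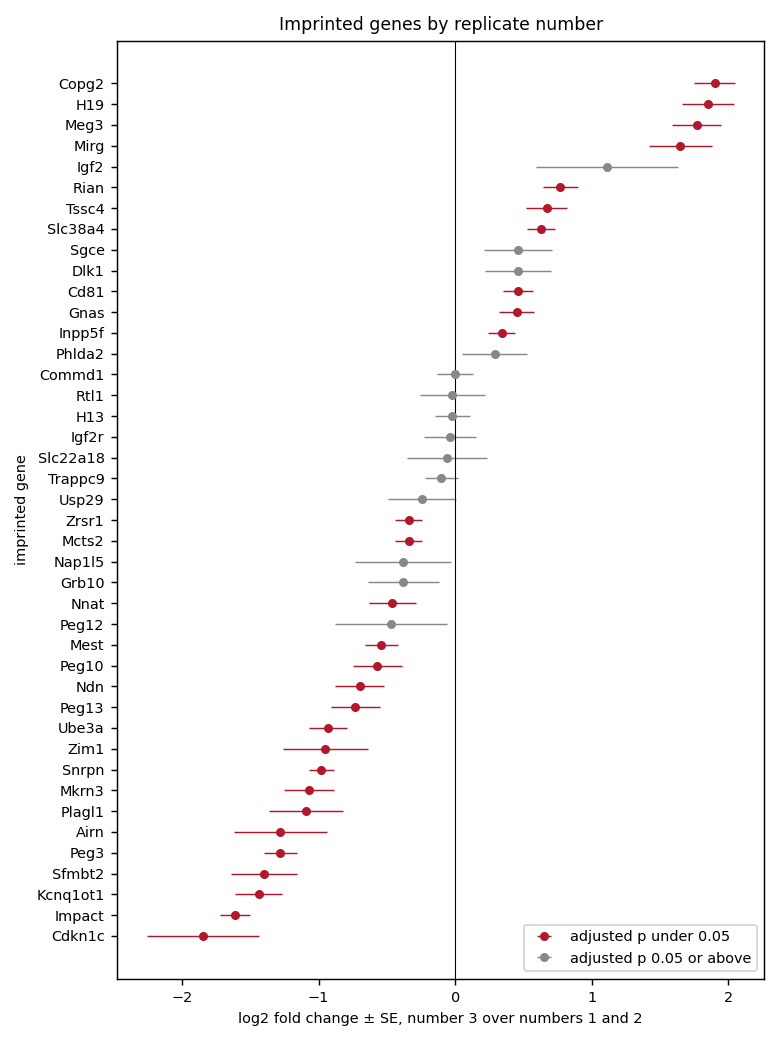
Log2 fold change ± SE of number 3 libraries over number 1 and 2 libraries for the 42 imprinted genes tested, from the fit with group and number; red points have an adjusted p under 0.05. Of the 28 red points 18 lie below 0, with Copg2 at 1.90 at the top and Cdkn1c at -1.85 at the bottom.

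Genes that set, keep or remove DNA methylation or bind imprinted regions were set beside the members as a list of 16, all tested. It holds the methyltransferases, the ZFP57 complex, CTCF, and the Tet enzymes and Tdg, which act in removal. In neo1 MUT against control, 0 of 16 rose and 2 fell (median -0.13), beside 5.26% of all genes called and 3.3% called lower: Dnmt3b, a de novo methyltransferase, at -0.61 ± 0.13 (adjusted p = 0.021), and Dnmt3l, its cofactor, at -0.78 ± 0.15 (adjusted p = 0.0154). Dnmt3b averaged 137 ± 30.9 CPM in neo1 MUT and 210.4 ± 57.2 CPM in control, and Dnmt3l 175 ± 36.6 CPM in neo1 MUT and 299.5 ± 46.5 CPM in control (SD, n = 3 each). Both also fell against unc5B MUT (median of the list -0.20, beside 4.87% of all genes called), and Dnmt3l and Dppa3 fell against netrin-1 WT (1.99% of all genes). In netrin-1 WT against control 1 rose and 1 fell (median -0.03), beside 3.5% of all genes called: Dppa3, which shields methylation in the early embryo, at 2.24 ± 0.36 (adjusted p = 0.00784), and Dnmt3a, at -0.64 ± 0.13 (adjusted p = 0.0242). Dppa3 averaged 5.19 ± 1.81 CPM in netrin-1 WT and 1.34 ± 1.18 CPM in control. Against netrin-1 WT, unc5B MUT had Dppa3 lower and Dnmt3a higher (1.97% of all genes called), and against control it had 0 of 16 called with the block, as had every comparison without it. Between number 3 and numbers 1 and 2, 12 of the 16 were called (7 higher and 5 lower), beside 62.8% of all genes.

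A further 35 imprinted genes served as a second list, of which 24 were tested. In neo1 MUT against control, none rose and 2 fell (median -0.04), beside 5.26% of all genes called and 3.3% called lower. Ascl2, a trophoblast transcription factor gene, fell at -2.26 ± 0.45 (adjusted p = 0.0178). Tnfrsf23, a decoy receptor gene, fell at -2.14 ± 0.48 (adjusted p = 0.0313). Both lie near H19 on distal chromosome 7 and were low. Ascl2 averaged 0.293 ± 0.0192 CPM in neo1 MUT and 1.40 ± 0.589 CPM in control. Tnfrsf23 averaged 0.283 ± 0.224 CPM in neo1 MUT and 1.21 ± 0.172 CPM in control (SD, n = 3 each). In netrin-1 WT against control Pon2 alone fell, at -0.95 ± 0.23 (adjusted p = 0.046), beside 3.5% of all genes called, and in the other 4 comparisons none was called with the block. Without the block none was called in any comparison.

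In the authors' deposited table of comparisons, which covers 43 of the 44 genes, 5 members had an adjusted p under 0.05 in neo1 MUT against control (H19, Dlk1, Peg3, Sfmbt2 and Peg13). The authors' deposited table lists none in unc5B MUT against control and 3 in netrin-1 WT against control (H19, Sfmbt2 and Mcts2). There are 3 in the authors' deposited table in unc5B MUT against netrin-1 WT (H19, Ndn and Sfmbt2), 6 in neo1 MUT against netrin-1 WT and 8 in neo1 MUT against unc5B MUT. Of all 20347 genes in the authors' deposited table, 5.52% are under that threshold in neo1 MUT against control, 0.0491% in unc5B MUT against control and 4.42% in netrin-1 WT against control. For the other comparisons the authors' deposited table gives 3.07% in unc5B MUT against netrin-1 WT, 2.19% in neo1 MUT against netrin-1 WT and 6.36% in neo1 MUT against unc5B MUT. Peg10 is not among the 6 of the authors' deposited table for neo1 MUT against netrin-1 WT, where the fit with the block called 7.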

How the data were processed

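Total RNA of 12 libraries was sequenced, 3 in each of 4 groups, grouped by title. The raw table, as deposited, holds the authors' estimated counts per Ensembl gene, which need not be whole. The submitters' processing notes list DESeq2, R 3.3.2, STAR 2.5.2b, FastQC 0.11.5, Bowtie2 and Bowtie, and the builds GRCm38.p5, mm10 and GRCh38; the program that counted and its use of strand are not given in the sources used here. The authors' deposited table of comparisons gives log2 fold changes, p-values and adjusted p-values, per the file headers. Its signed fold-change score, computed by the authors, and the authors' separately deposited normalized log2 table were not used here.

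Of 52661 IDs, 52566 matched GENCODE M21. The design had assumed whole-number counts, so the estimated counts were rounded before edgeR 4.0.16 (R 4.3.3) with TMM normalization (factors 0.774 to 1.182) and filterByExpr, which kept 21053 genes. All groups entered 1 fit with the group as its only term. Adding the replicate number as a block was the other fit set up: same-numbered libraries correlated at 0.58 to 0.88, above the set minimum of 0.1 for pairing, and 11 of 12 libraries correlated best with their own number, though numbers 1 and 2 also correlated with each other. The pairing rests on the numbers in the titles and on these correlations. Deviations within a group sum to 0, and numbers 1 and 2 correlated with each other at 0.49 to 0.76. Passing the minimum of 0.1 therefore cannot show that numbers 1 and 2 mark separate pairs. CPM values use TMM library sizes; SDs are over n = 3. An SE is the log2 fold change divided by the root of F. Within-number differences use log2 CPM with a prior count of 2 and have no test. Other settings were RLE size factors, other filters, DESeq2 1.42.0, limma-voom (limma 3.58.1), fewer groups and fewer libraries. Members called by either fit, and an anchor list for each cluster, are given by library. The members and lists were chosen with earlier results of these data known.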

Additional observations from a re-analysis of the deposited data

Results flagged for a closer look

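Effects against control were taken within each replicate number. For 4 genes they had one sign in all 3 numbers of one construct and the other sign in all 3 of another. This comparison of signs is not itself a test. It was chosen over 42 genes and every pair of constructs, and the share of all genes that meet it was not counted. Peg13 differed by -3.01 on the log2 scale between neo1 MUT (-3.00, -3.19 and -2.30) and unc5B MUT (0.03, 0.23 and 0.29). Snrpn differed by -0.60 between neo1 MUT (-0.46, -0.50 and -0.28) and unc5B MUT (0.14, 0.07 and 0.34), and Sgce by 0.96 between neo1 MUT (0.76, 0.80 and 0.08) and unc5B MUT (-0.22, -0.14 and -0.89). Ndn differed by -1.06 between neo1 MUT (-0.57, -0.50 and -0.09) and netrin-1 WT (0.41, 0.44 and 1.18). The direct edgeR contrasts with the replicate block were called for Peg13, Snrpn and Ndn, and not for Sgce (adjusted p = 0.121). They use the same libraries as the signs. When 1 library was left out, the Snrpn call held only without neo1 MUT library 3. The Ndn call was lost without any 1 of the 6 libraries.

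The genes under the filter on low counts also carried reads, at low levels. Magel2, a gene of the necdin family, was at 0.0427, 0 and 0 CPM in neo1 MUT, 0.161, 0.196 and 0.0543 CPM in unc5B MUT, 0.123, 0.0796 and 0.145 CPM in netrin-1 WT, and 0.111, 0.143 and 0 CPM in control. It reached 0.196 CPM in unc5B MUT library 2, above the highest control library at 0.143 CPM. Rasgrf1, a guanine nucleotide exchange factor gene, was at 0.897, 0.209 and 0.0525 CPM in neo1 MUT, 0.0804, 0.697 and 0.0543 CPM in unc5B MUT, 0.197, 0.212 and 0.0485 CPM in netrin-1 WT and 0.155, 0.167 and 0.112 CPM in control. The highest was neo1 MUT library 1 at 0.897 CPM, and the highest control library was at 0.167 CPM.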

How the results depend on the processing

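Counts of imprinted genes called are given in the order neo1 MUT against control, netrin-1 WT against control, unc5B MUT against netrin-1 WT, neo1 MUT against netrin-1 WT and neo1 MUT against unc5B MUT; unc5B MUT against control had 0 under every setting. With the group as the only term edgeR called 1, 0, 0, 0 and 1. The replicate block, that is the paired fit, gave 5, 2, 1, 7 and 8. With RLE size factors the block gave 5, 2, 1, 8 and 8, beside 5.28%, 3.52%, 1.97%, 1.95% and 4.84% of all genes. DESeq2 gave 4, 0, 0, 3 and 4, beside 2.01%, 1.65%, 0.864%, 1.07% and 1.79% of all genes. With the replicate block DESeq2 gave 7, 5, 8, 10 and 9, beside 10.2%, 8.25%, 7.04%, 5.39% and 10.4% of all genes. With the replicate block and numbers 1 and 2 alone the counts were 15, 17, 14, 6 and 15, from 43 members tested, beside 10.5%, 16.3%, 13.4%, 2.95% and 10% of all genes. A fit of only the 2 groups compared gave 0 in all, Peg13 being the call lost. RLE size factors, no filter beyond 1 count, a minimum of 1 CPM in 3 libraries, and limma-voom left all counts as they were. Leaving out 1 library at a time gave 0 to 1, 0, 0, 0 and 0 to 2 without the block, and 4 to 5, 1 to 6, 0 to 10, 3 to 5 and 4 to 6 with it. The cause was not tested, and shares of all genes are not given for these settings. These ranges therefore cannot tell a change of the members from a change of all genes. The contrast of number 3 with numbers 1 and 2 called 24 to 29 members when 1 library was left out and 28 or 29 under the other settings. No fold change of a member called in either fit changed sign under any setting.

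Of 6 members that averaged under 1 CPM in control, Magel2 and Rasgrf1 were not tested, and none of the other 4 was called with or without the block. Exact permutation of 3 against 3 libraries cannot go below 0.1, so none is given. Reads of Mest with Copg2, Zrsr1 with Commd1, Usp29 with Zim3, Igf2 with Gm49394, Gnas with Nespas, Cdkn1c with Gm44732, Meg3 with Gm26906, Ube3a with Snhg14 and Snrpn with Snurf are uncertain, since these genes share exonic bases. Allelic expression and methylation were not analysed here.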
